A study of Rattus norvegicus with 14 samples.

Results

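The miRNAs described here are those of the Hox clusters in the serum of rat pups: miR-10a, miR-10b, miR-196a, miR-196b and miR-196c, with both arms of each hairpin where the table lists them. The rule that selects them uses their names and no measured value. Of the 375 mature miRNAs in the deposited table, 6 are members: both arms of miR-10a and of miR-10b, and the 5p arms of miR-196a and miR-196b. No arm of miR-196c was listed. Serum came from female Long Evans pups on postnatal day 8, 1 pup per litter, so each library is a separate animal. The Control group (8 libraries) had dams on water with 0 ppm of PTU, and its pups are called euthyroid. The PTU group (6 libraries) had dams on water with 3 ppm of PTU, and its pups are called hypothyroid. PTU is propylthiouracil, which stops the thyroid from making its hormones. Both groups share strain, sex, age and the cell-free RNA source, and the comparison asks which serum miRNAs differ between them.

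miRNAs are short RNAs that pair through their seed, bases 2 to 8 from the 5′ end, with target mRNAs and lower their output. The miR-10 genes lie beside the Hox4 genes and the miR-196 genes beside the Hox9 genes, and both families are transcribed along the body axis in patterns that follow their Hox neighbours, which set the identity of trunk and posterior segments. miR-196 is known to cleave Hoxb8 mRNA in mouse embryos, and miR-10 is known to act in vessel growth in zebrafish. Serum holds miRNAs released from many tissues, so a lower level in serum cannot be assigned to fewer cells, less RNA per cell or less release.

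The mature sequences are shown because the paralogs differ so little that a counter can exchange their reads. All 6 members matched RefSeq (build GRCr8), and seeds are in capitals.
miR-10a-5p: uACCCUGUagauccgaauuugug
miR-10b-5p: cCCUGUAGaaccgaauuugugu
miR-10a-3p: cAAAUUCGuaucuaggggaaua
miR-10b-3p: aCAGAUUCgauucuaggggaa
miR-196a-5p: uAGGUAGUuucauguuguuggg
miR-196b-5p: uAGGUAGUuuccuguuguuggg
miR-196c-5p: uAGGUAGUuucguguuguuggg
The miR-196 5p arms share 1 seed and differ by a single base, written here from the 5′ end of the first sequence as A12C between miR-196a-5p and miR-196b-5p, and as A12G between miR-196a-5p and miR-196c-5p. No other listed miRNA carried that seed. miR-10a-5p and miR-10b-5p also differ by a single base (U12A, counted on miR-10a-5p) over the 21 bases that overlap. However, the RefSeq entry of miR-10b-5p starts 2 bases further in, so the annotated seeds of the pair are not the same. The 3p arms of miR-10a and miR-10b differ at 3 of 20 aligned bases (A3G, U9A and A10U, counted on miR-10a-3p).

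The hairpins show where that offset lies, with the annotated arms in capitals.
Mir10a: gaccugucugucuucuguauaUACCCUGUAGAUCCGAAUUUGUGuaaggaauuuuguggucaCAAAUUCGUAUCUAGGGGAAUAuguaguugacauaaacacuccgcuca
Mir10b: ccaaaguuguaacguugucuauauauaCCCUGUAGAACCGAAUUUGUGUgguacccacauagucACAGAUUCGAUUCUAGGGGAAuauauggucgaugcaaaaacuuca
In Mir10b the bases UA stand just before the annotated 5p arm, and the 5p arm of Mir10a begins with those same bases. Whether the molecules in these libraries began at the annotated base cannot be read from counts. In the GRCr8 gene table Mir10a lies between Hoxb5 and Hoxb4, and Mir10b within the span of Hoxd4. Mir196a lies between Hoxc10 and Hoxc9, Mir196b between Hoxa9 and Hoxa10, and Mir196c between Hoxb13 and Hoxb9. The listed members thus come from 4 precursors in all 4 Hox clusters. Coordinates are left out because the deposited table does not name its build.

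Total counts over the listed miRNAs ran from 452961 to 2119979 per library and did not differ between the groups beyond their spread (two-sided exact permutation of the log2 values, p = 0.417). Levels below are scaled counts (CPM). A count of 3 corresponded to between 1.44 and 6.38 CPM, a floor that covers counting error only. PTU replicate 6 stood apart in composition, and its TMM scaling factor of 1.19 was the highest of the 14. It also stood apart in miRNAs outside the marker lists. There miR-484 was at 1061 CPM (others at most 119 CPM), miR-29b-3p at 1512 CPM (others at most 164 CPM) and miR-141-3p at 3441 CPM (others at most 673 CPM). Of the marker miRNA lists, its summed level of the endothelial and blood miRNAs (miR-126a-3p, miR-126a-5p and miR-223-3p) was 14426 CPM, where the other 13 libraries had 7015 to 10039 CPM. miR-126a-3p and miR-223-3p were each at their highest there, and miR-126a-5p was not. Its sum of the gut and kidney miRNAs (miR-192-5p, miR-194-5p and miR-215) was also the highest of the 14, at 444 CPM, through miR-194-5p (150 CPM, where the others had at most 57.4 CPM), while miR-215 was at 7.05 CPM and ranked 11. Its sums of striated muscle, skin, and mesenchyme and smooth muscle miRNAs were the lowest of the 14. The members of the last list were split. There miR-199a-3p (30520 CPM) and miR-214-3p (371 CPM) were at their lowest of the 14 libraries. By contrast, miR-145-5p (930 CPM, where the others had at most 454 CPM) and miR-143-3p (14787 CPM) were at their highest.

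miR-10b-5p and miR-10a-5p made up nearly all of the Hox cluster counts, and miR-196 was scarce. The 6 members together took 0.438% ± 0.136 of all counts in Control serum (SD, n = 8) and 0.418% ± 0.0985 in PTU serum (SD, n = 6), and the miR-10 5p arms made up at least 95.7% of those counts in every library. By mean CPM over all libraries, miR-10b-5p ranked 42 and miR-10a-5p 57 among the 357 miRNAs tested. miR-10b-3p ranked 248, miR-10a-3p 279, miR-196b-5p 302 and miR-196a-5p 341.

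miR-10b-5p was above miR-10a-5p in 14 of 14 libraries, by 1.26 to 3.11 times. miR-10a-5p was in turn 17.0 to 55.9 times the level of miR-10b-3p. miR-10b-3p exceeded miR-10a-3p in 13 of 14 libraries, and Control replicate 7 had 54 against 55 counts. miR-10a-3p and miR-196b-5p were the least separated neighbours in this order: the first was higher in 10 of 14. miR-196b-5p was above miR-196a-5p in 14 of 14, by a median of 2.00 times, but Control replicate 7 had 19 against 17 counts. All members are of like length, yet ligation and amplification differ between sequences, so the order is of library counts and not of molecules in serum.

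No Hox cluster miRNA passed the threshold between PTU and Control serum. All 6 had a lower fitted level in PTU, with log2 fold changes from -0.40 to -0.08 and a median of -0.32. Over all 357 tested miRNAs the median was 0.03, and 42.3% had a negative value. A false discovery rate of 0.05 was passed by 0 of the 6 members and by 0% of all tested miRNAs (quasi-likelihood test of edgeR, adjusted by Benjamini-Hochberg). At an unadjusted p under 0.05 there were 0 members, against 13.2% of all tested, or 47 miRNAs; 5.32% of all tested were past it with a lower PTU level. The groups overlapped for all 6 members, where 0.56% of all tested miRNAs had groups that did not. DESeq2 called 1 miRNA, miR-543-3p, and limma-voom called 0, with no member in either. The 6 arms are not independent, since they come from 4 precursors and share their libraries.

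**Figure D1:**
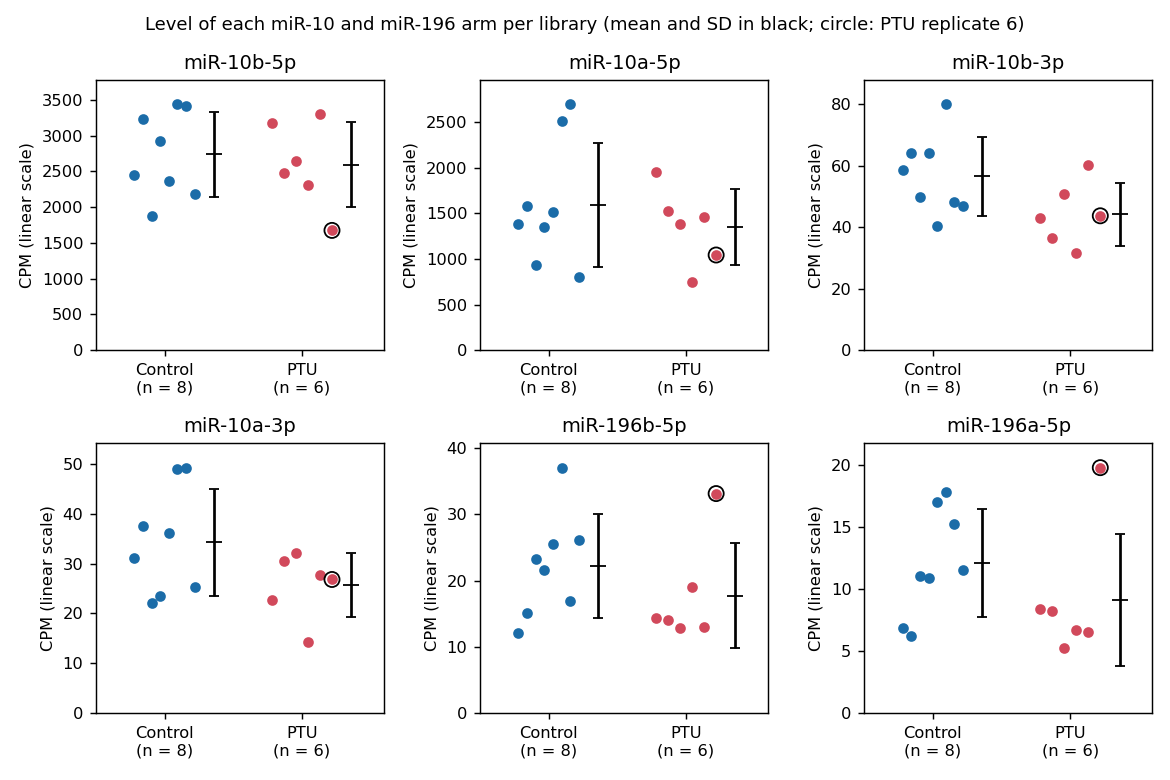
CPM of each of the 6 arms (linear axes starting at 0) in 8 Control and 6 PTU libraries, with 1 point per library and the mean and SD in black; a circle marks PTU replicate 6. The groups overlap in every panel, and in the miR-196 panels the circled library lies well above the other 5 of its group.

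miR-10b-5p, the most abundant member and the product of the Hoxd locus, had close means in both groups. In Control serum it ran from 1872 CPM (replicate 3) through a median of 2691 to 3439 CPM (replicate 6). In PTU serum it ran from 1674 CPM (replicate 6) through a median of 2556 to 3297 CPM (replicate 5). The groups overlapped almost fully. The mean was 2737 ± 598 CPM in Control serum (SD, n = 8) and 2596 ± 597 CPM in PTU serum (SD, n = 6). On the log2 scale the change was -0.08 ± 0.18 (SE, adjusted p = 0.907, edgeR), and its 95% interval spanned 0.735 to 1.22 times the Control level. Its sign was not stable: the value was 0.00093 without PTU replicate 6, 0.0071 by limma-voom and 0.087 with the red cell ratio described below as a covariate.

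miR-10a-5p, from the Hoxb locus, spread over a wider range between pups. In Control serum it ran from 798 CPM (replicate 8) through a median of 1446 to 2699 CPM (replicate 7). In PTU serum it ran from 744 CPM (replicate 4) through a median of 1425 to 1958 CPM (replicate 1). The PTU range lay almost wholly within the Control range, and the medians were close. Control serum averaged 1596 ± 682 CPM (SD, n = 8) and PTU serum 1355 ± 419 CPM (SD, n = 6). Their log2 fold change by edgeR was -0.24 ± 0.27 (SE, 95% interval -0.80 to 0.33; adjusted p = 0.74, edgeR). Leaving out single libraries moved it between -0.36 and -0.07, the latter without Control replicate 7, and with the red cell covariate it was 0.17.

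The spread of miR-10a-5p was larger than counting could give. Its coefficient of variation in Control serum was 42.7%, where counting error alone would give 2.75%. miR-10b-5p had 21.9% against 2.06%. edgeR's estimate of the variation between animals was 0.356 for miR-10a-5p and 0.248 for miR-10b-5p, with a median of 0.26 over all tested miRNAs. Only 55 of the 357 had a higher estimate than miR-10a-5p. In PTU serum the coefficients were 30.9% for miR-10a-5p and 23.0% for miR-10b-5p. For miR-196a-5p the coefficient was 35.7% in Control serum, with a counting part of 32.4%, and 58.4% in PTU serum, with a counting part of 30.9%.

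The 3p arms are the scarcer products of the miR-10 hairpins. miR-10b-3p ran from 40.4 to 80.0 CPM in Control serum (median 54.3) and from 31.5 to 60.2 CPM in PTU serum (median 43.4). In 5 of 6 PTU libraries it was below the Control median. Control serum averaged 56.6 ± 12.8 CPM (SD, n = 8) and PTU serum 44.3 ± 10.3 CPM (SD, n = 6), which gives -0.35 ± 0.19 on the log2 scale (SE; 95% interval -0.74 to 0.05; adjusted p = 0.433, edgeR).

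miR-10a-3p was the member with the lowest fold change, and it had no PTU library above the Control median of 33.6 CPM. It ran from 22.2 to 49.2 CPM in Control serum and from 14.3 to 32.1 CPM in PTU serum, with a PTU median of 27.2 CPM. Both groups thus shared the range between 22.2 and 32.1 CPM. Control serum averaged 34.2 ± 10.7 CPM (SD, n = 8) and PTU serum 25.7 ± 6.45 CPM (SD, n = 6). On the log2 scale the change was -0.40 ± 0.23 (SE, 95% interval -0.89 to 0.09; adjusted p = 0.453, edgeR). The value was -0.25 without PTU replicate 4 and -0.17 with the red cell covariate. Counts behind it ran from 15 to 72 per library.

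miR-196b-5p, from the Hoxa locus, took a narrow range in PTU serum, with 1 library apart. In Control serum it ran from 12.1 CPM (replicate 1) through a median of 22.5 to 37.1 CPM (replicate 6). In 5 PTU libraries it lay between 12.9 and 19.1 CPM, and in PTU replicate 6 it was at 33.2 CPM. Those 5 were below the Control median, and replicate 6 was above all but 1 Control library. The mean was 22.2 ± 7.83 CPM in Control serum (SD, n = 8) and 17.8 ± 7.87 CPM in PTU serum (SD, n = 6), which gives -0.29 ± 0.28 on the log2 scale (SE; adjusted p = 0.661, edgeR).

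miR-196a-5p, from the Hoxc locus, showed the same arrangement at a lower level. In Control serum it ran from 6.25 CPM (replicate 2) through a median of 11.3 to 17.8 CPM (replicate 6). In 5 PTU libraries it lay between 5.27 and 8.35 CPM, and in PTU replicate 6 it was at 19.7 CPM, the highest of all 14. On the log2 scale it changed by -0.35 ± 0.33 (SE, 95% interval -1.05 to 0.35; adjusted p = 0.667, edgeR). Counts were few, from 4 in Control replicate 1 (exact 95% Poisson interval 1.09 to 10.2) to 28 in PTU replicate 6.

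Both miR-196 values depended on single libraries, and of the 14 left out in turn PTU replicate 6 moved them most. miR-196a-5p was at -0.17 without PTU replicate 3, and miR-196b-5p at -0.17 without Control replicate 6, at -0.18 without PTU replicate 3 and at -0.19 without PTU replicate 5. With the red cell covariate they were at -0.14 and -0.18. Without PTU replicate 6, miR-196a-5p had a log2 fold change of -0.80 ± 0.29 (SE; unadjusted p = 0.0135, adjusted p = 0.201, edgeR) and that of miR-196b-5p was -0.62 ± 0.25 (unadjusted p = 0.0278, adjusted p = 0.284, edgeR). In that fit 2 of the 6 members had an unadjusted p under 0.05 with a lower PTU level, where 7.52% of all tested miRNAs did, and the false discovery rate of 0.05 was passed by 0%. The remaining 5 PTU libraries still overlapped the Control range for both. The summed tissue markers that stand highest and lowest in replicate 6 are given above, and their part in the miR-196 values was not tested.

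**Figure D2:**
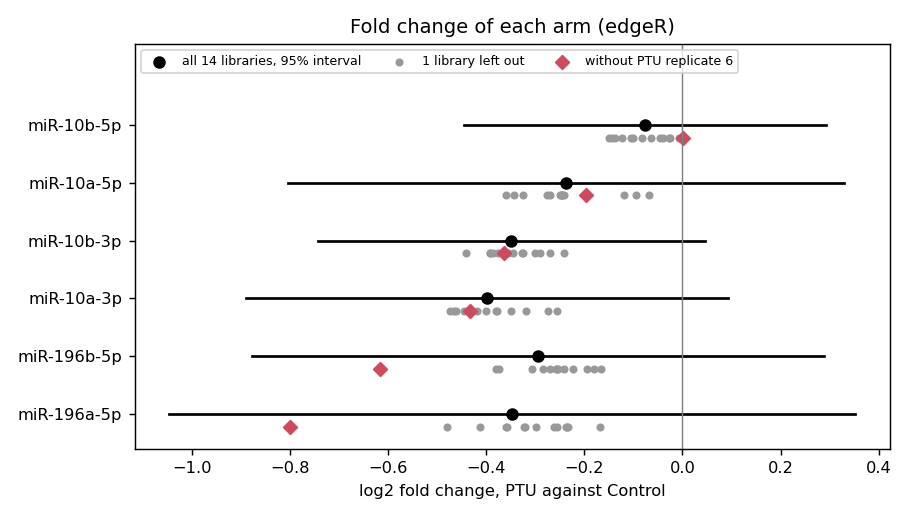
log2 fold change of each arm, PTU against Control (edgeR), with its 95% interval in black, the values with 1 library left out in grey and the value without PTU replicate 6 as a red diamond. Every interval spans 0, and the diamond stands far to the left of the other grey points for miR-196b-5p (-0.62) and miR-196a-5p (-0.80).

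In the authors' deposited table the 6 members had log2 fold changes from -0.37 (miR-10a-3p) to -0.07 (miR-10b-5p). The FDR in the authors' deposited table ran from 0.555 to 0.963 for them.

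Ratios between members within a library depend on the scaling only through the prior count of 2, which is set in proportion to library size. That prior weighs more on the scarce arms. None of the 5 ratios computed passed the test between the groups. The log2 ratio of miR-10a-5p to miR-10b-5p, that is the Hoxb against the Hoxd locus, averaged -0.97 ± 0.38 in PTU (SD, n = 6) and -0.86 ± 0.37 in Control (SD, n = 8). The difference was -0.11 (95% interval -0.54 to 0.32; exact two-sided permutation test over 3003 splits, p = 0.596, adjusted p = 0.803 over 5 ratios). In linear terms miR-10a-5p stood at 0.322 of miR-10b-5p in PTU replicate 4 and at 0.791 in Control replicate 7. It ran from 0.365 in Control and up to 0.624 in PTU, so the groups overlapped between these values.

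The 5p to 3p ratio compares the library counts of both arms of 1 hairpin. Its log2 value, computed with a prior count of 2, is slightly lower than that of the bare counts. For miR-10b its log2 value averaged 5.81 ± 0.36 in PTU (SD, n = 6) and 5.55 ± 0.29 in Control (SD, n = 8), a difference of 0.26 (95% interval -0.12 to 0.62; exact permutation p = 0.152, adjusted p = 0.761). For miR-10a it averaged 5.60 ± 0.39 in PTU and 5.41 ± 0.28 in Control, a difference of 0.19 (95% interval -0.18 to 0.58; exact permutation p = 0.333, adjusted p = 0.803). Without PTU replicate 1 the miR-10a difference was 0.044. Without PTU replicate 6 the miR-10b difference was 0.385 (exact permutation p = 0.0334, adjusted p = 0.167 over 5 ratios). By the counts themselves the 5p arm was 31.5 to 86.4 times the 3p arm for miR-10a and 37.5 to 74.1 times for miR-10b.

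The log2 ratio of miR-196a-5p to miR-196b-5p differed by -0.08 between PTU and Control (95% interval -0.42 to 0.26; exact permutation p = 0.642, adjusted p = 0.803). With a prior count of 0.5 this difference was -0.11. The log2 ratio of miR-10a-3p to miR-10b-3p differed by -0.03 (95% interval -0.50 to 0.44; exact permutation p = 0.879, adjusted p = 0.879). These intervals bound the differences and do not show the ratios to be equal.

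**Figure D3:**
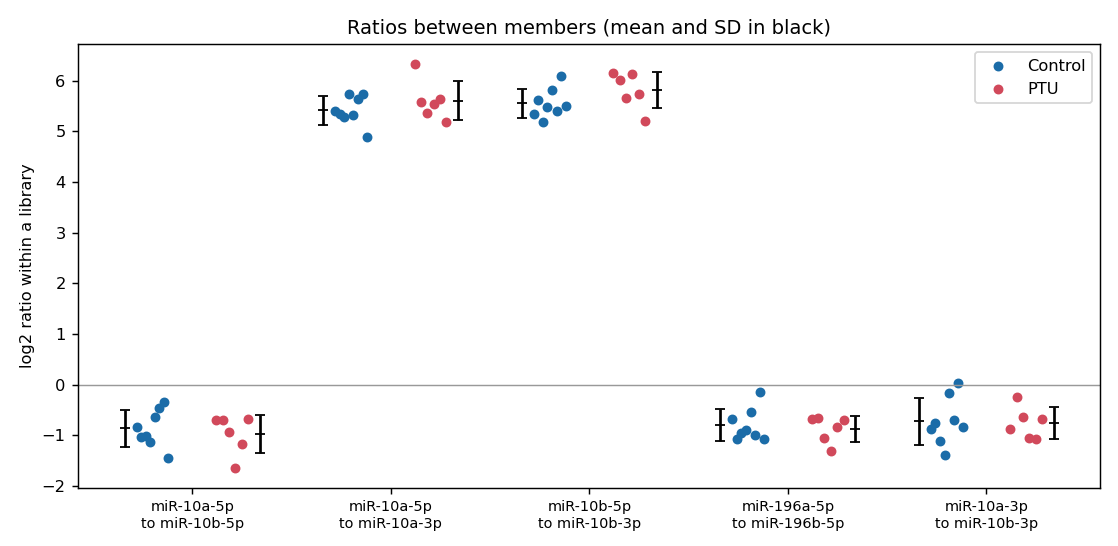
log2 ratio between pairs of members in each library, Control in blue and PTU in red, with mean and SD in black. The groups overlap in all 5 ratios, and the 5p arms of miR-10a and miR-10b stand at log2 ratios between 4.88 and 6.32 over their 3p arms.

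The 5p arms of each paralog pair varied together across the libraries. These values are correlations of log2 CPM over 14 libraries after each group's mean was subtracted, with p-values from 100000 permutations adjusted over 12 relations. The points share their library and its scaling factor. Where libraries were left out, the group means subtracted were still those over all libraries. miR-10a-5p and miR-10b-5p had Pearson's r = 0.77 (permutation p = 0.00168, adjusted p = 0.00672) and Spearman's rho = 0.81 (permutation p = 0.00057, adjusted p = 0.00342). Within the groups r was 0.86 in Control and 0.64 in PTU, and it was 0.79 without PTU replicate 6 and Control replicate 3, the libraries farthest from the median of miR-10b-5p.

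miR-196a-5p and miR-196b-5p had r = 0.82 (permutation p = 0.00038, adjusted p = 0.00294) and rho = 0.82 (permutation p = 0.0005, adjusted p = 0.00342). Within the groups r was 0.77 in Control and 0.89 in PTU, and it was 0.62 without Control replicate 6 and PTU replicate 6. Much of the spread of these scarce arms is counting error. In Control serum the coefficient of variation was 35.7% for miR-196a-5p, where counting alone would give 32.4%. For miR-196b-5p it was 35.2%, where counting alone would give 23.5%. How far the shared variation lies between pups was not tested. Since each of these pairs differs by a single base over the shared stretch, reads exchanged between paralogs by the counter would also tie their values, and this was not tested.

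Both arms of each miR-10 hairpin were also set side by side. These values do not test the exchange of reads between paralogs. miR-10a-5p and miR-10a-3p had r = 0.81 (permutation p = 0.00049, adjusted p = 0.00294) and rho = 0.80 (permutation p = 0.00092, adjusted p = 0.00368). Pearson's r was 0.91 in Control, 0.63 in PTU and 0.70 without PTU replicate 4 and Control replicate 7. Spearman's rho was 0.93 in Control and 0.26 in PTU. miR-10b-5p and miR-10b-3p had r = 0.52 (permutation p = 0.0595, adjusted p = 0.143) and rho = 0.56 (permutation p = 0.0383, adjusted p = 0.0766), which did not pass.

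None of the 4 pairs of a miR-10 5p and a miR-196 5p arm passed. The most negative was miR-10b-5p with miR-196b-5p, at r = -0.42 (permutation p = 0.136, adjusted p = 0.257) and rho = -0.44 (permutation p = 0.119, adjusted p = 0.204). Within the groups r was -0.04 in Control and -0.89 in PTU, and rho was -0.10 and -0.71. Without PTU replicate 6 and Control replicate 3 Pearson's r was -0.10, so the value rested on those libraries. PTU replicate 6 had the lowest miR-10b-5p of all 14 libraries together with the second highest miR-196b-5p.

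**Figure D4:**
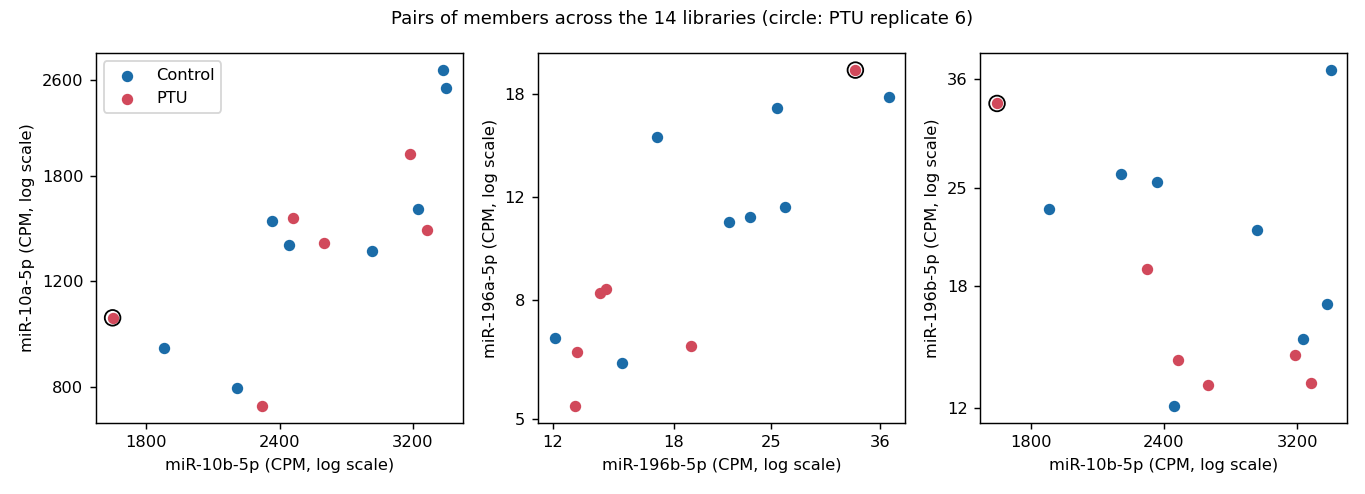
CPM of pairs of members across the 14 libraries on log axes, Control in blue and PTU in red, with PTU replicate 6 circled. The paralog pairs (left, r = 0.77, and middle, r = 0.82) rise together, whereas in the right panel miR-10b-5p and miR-196b-5p have r = -0.42, which is -0.10 without the circled library and Control replicate 3.

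Red cell RNA was set beside these values because it moves serum miRNA shares. The red cell ratio, log2 of miR-451-5p (made in red cell precursors) to miR-23a-3p, averaged 0.87 ± 0.78 in PTU (SD, n = 6) and 0.12 ± 0.57 in Control (SD, n = 8). Both of its terms were high in PTU replicate 6. There miR-451-5p was at 17616 CPM, where the others had at most 8440 CPM, and the miR-23a-3p count of 10570 was the highest. The red cell marker miR-16-5p ranked 13 of 14 in that library. Against the red cell ratio miR-10a-5p had r = -0.61 (permutation p = 0.0211, adjusted p = 0.0633) and rho = -0.71 (permutation p = 0.00613, adjusted p = 0.0184). Pearson's r was -0.66 in Control, -0.58 in PTU and -0.55 without Control replicate 6 and PTU replicate 3. Spearman's rho was -0.69 in Control and -0.77 in PTU. miR-10b-5p had r = -0.41 (permutation p = 0.15, adjusted p = 0.257) and rho = -0.56 (permutation p = 0.0375, adjusted p = 0.0766). For miR-196b-5p r was -0.17 (permutation p = 0.554, adjusted p = 0.595) with rho = -0.08 (permutation p = 0.785, adjusted p = 0.785). For miR-196a-5p r was -0.31 (permutation p = 0.276, adjusted p = 0.397) with rho = -0.39 (permutation p = 0.17, adjusted p = 0.255). In Control r was -0.59 for miR-10b-5p, -0.67 for miR-196b-5p and -0.62 for miR-196a-5p. In PTU these were -0.23, 0.32 and -0.04. Without Control replicate 6 and PTU replicate 3 they were -0.33, 0.24 and -0.06.

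The miRNAs most like the miR-10 5p arms over the 14 libraries were named by the highest Pearson's r among 356 others, as a description. For miR-10b-5p they were miR-10a-5p (0.77), miR-384-3p (0.67) and let-7a-1-3p (0.65). For miR-10a-5p they were let-7c-2-3p (0.84), its own other arm miR-10a-3p (0.81) and miR-10b-5p (0.77). let-7a-1-3p and let-7c-2-3p are themselves scarce, at 16.7 and 14.8 CPM. The median r over all others was 0.02 for miR-10b-5p and -0.03 for miR-10a-5p. By the same measure miR-196a-5p ranked 100 and miR-196b-5p 271 for miR-10a-5p, and 288 and 316 for miR-10b-5p.

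Relatives of miR-10 were compared as a group. miR-99 and miR-100 descend from the same ancestral miRNA as miR-10, miR-125 is their usual neighbour in the genome, and miR-615 is a further miRNA of the Hoxc cluster. Of this list 10 arms were measured, and miR-615 was not among the listed miRNAs. Of these 10 arms 5 had a positive and 5 a negative log2 fold change, with a median of -0.03, and 0 passed. miR-100-5p, the arm with the highest value, had 0.46 ± 0.28 (SE; adjusted p = 0.472, edgeR), with 2010 CPM in PTU replicate 6 where the other 13 libraries had 454 to 730 CPM. miR-125b-1-3p had the lowest, at -0.26 ± 0.18 (SE; adjusted p = 0.528, edgeR), and miR-99a-5p had -0.19 ± 0.16. The abundant miR-125b-5p averaged 9594 ± 2399 CPM in Control serum (SD, n = 8), several times the level of miR-10b-5p. Whether the Hox cluster miRNAs differ from these relatives in their response was not tested.

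Markers of the tissues that could feed serum were all detected. None of the 19 listed marker arms passed the threshold. The red cell sum (miR-451-5p, miR-144-3p and the widely made miR-16-5p) ran from 77570.5 to 127909 CPM in Control and from 62077 to 149543 CPM in PTU. Most of that sum was miR-16-5p, with a Control mean of 92440 CPM against 4048 CPM for miR-451-5p and 340 CPM for miR-144-3p. All 3 of its members had positive log2 fold changes, as did 206 of all 357 tested miRNAs. The values were 1.21 ± 0.32 (SE; adjusted p = 0.179, edgeR) for miR-144-3p and 0.93 ± 0.34 (adjusted p = 0.258) for miR-451-5p. For miR-16-5p the value was 0.08 ± 0.19 (adjusted p = 0.907). The mesenchyme and smooth muscle sum (miR-199a-3p, miR-214-3p, miR-143-3p and miR-145-5p) ran from 51085 to 77593 CPM in Control and from 46608 to 64079 CPM in PTU. The striated muscle sum ran from 411872 to 548018 CPM in Control and from 352875 to 588751 CPM in PTU, and all 3 of its miRNAs had negative log2 fold changes. Skin miRNAs ran from 4721 to 8051 CPM in Control and from 3123 to 8795 CPM in PTU, and the liver miRNA miR-122-5p from 370 to 2567 CPM and from 333 to 2146 CPM. Their part in the Hox cluster values was not tested.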

How the data were processed

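Small RNA libraries used the QIAseq miRNA kit with 22 PCR cycles, per the labels' protocols. The deposited table gives raw counts per mature miRNA as whole numbers, and with the authors' own log2 fold change, log2 CPM, p-value and FDR. It also holds the mean count of each group, a linear signal by the authors. The submitters' processing notes name edgeR. The aligner, reference, build and use of molecular identifiers were not given in the sources used here. Samples were matched to columns by the identifier in their titles. Libraries of a group differed by a chi-square per degree of freedom of at least 21.7, so none was a duplicate.

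Counts were filtered with filterByExpr (357 of 375 kept, including all 6 members), scaled by TMM and tested with edgeR 4.0.16 (quasi-likelihood test, R 4.3.3) for PTU against Control over all 14 libraries with no covariate, at a false discovery rate of 0.05 over all tested miRNAs. SE is the absolute log2 fold change over the square root of F. log2 CPM used a prior count of 2. Ratios were compared by exact permutation, and their 95% intervals hold the shifts that test did not reject (steps of 0.02). Alternatives used DESeq2 1.42.0 and limma 3.58.1. The fit was tested on simulated data.

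Named miRNAs were all members, the 3 most like each miR-10 5p arm, the relatives and the tissue markers. The members and lists were chosen with earlier results of these data known. The 3p ratio, the pairs of arms and the red cell correlations were added after values were seen. Replicate numbers do not mark shared litters.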

Additional observations from a re-analysis of the deposited data

Results flagged for a closer look

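Of 22 sets of values tested for a library standing apart (the 6 members and 5 ratios in each group), 2 held such a library, and chance flags about 1 in 20. Both were PTU replicate 6, in the miR-196 paralogs, which varied together in PTU (r = 0.89), so the flags are not independent. Their number is near what chance alone would give. Its miR-196b-5p was at 33.2 CPM, where the other 5 PTU libraries had 12.9 to 19.1 CPM. Its miR-196a-5p was at 19.7 CPM, where the others had 5.27 to 8.35 CPM. The counts behind these were 47 and 28. The miR-10 arms of that library were not flagged, and its miR-10b-5p, at 1674 CPM, was the lowest of the 14.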

How the results depend on the processing

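No member passed under any of the 25 alternatives. Over all miRNAs, 0 were called except by DESeq2 (1, miR-543-3p) and without PTU replicate 5 (1, miR-203b-3p), so the range with 1 library left out was 0 to 1. Upper-quartile factors moved the median of all miRNAs by -0.11 (log2). With them all 6 members stayed lower, and miR-10b-3p had an unadjusted p of 0.0363 (adjusted p = 0.322, edgeR). In that fit 51 of the 357 tested miRNAs had an unadjusted p under 0.05, and 38 of them were lower in PTU. Without PTU replicate 5 the same arm had an unadjusted p of 0.0414 (adjusted p = 0.308, edgeR). There 54 of 358 tested miRNAs were under 0.05, and 23 of them were lower in PTU. With no factors miR-10b-5p was at -0.00023. The red cell covariate turned miR-10b-5p to 0.087 and miR-10a-5p to 0.173 and moved the median of the members from -0.32 to -0.15, limma-voom turned miR-10b-5p to 0.0071, and the cause was not tested. With 1 library left out, miR-10b-5p ran from -0.15 to 0.00093, the PTU minus Control difference of the miR-10a-5p to miR-10b-5p log2 ratio from -0.194 to 0.0244, that of miR-196a-5p to miR-196b-5p from -0.12 to 0.0139, and that of miR-10a-3p to miR-10b-3p from -0.137 to 0.0728. The 5p to 3p difference ran from 0.044 to 0.27 for miR-10a and from 0.195 to 0.385 for miR-10b. None of these ratios passed when adjusted over the 5. The stricter filter (10 counts in at least 10 libraries) and the 12-library fits left miR-196a-5p out. Replicate numbers did not pair the libraries: 2 of 6 pairs correlated above 0.1 and 2 of 12 libraries correlated best with their own number. With the replicate block 0 miRNAs and 0 members were called, as without it on those 12 libraries, and miR-10a-5p was at -0.19. Counting error made up a larger part of the spread for miR-196 than for the miR-10 5p arms.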
